A study of Mus musculus with 4 samples.

Results

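Small nucleolar RNAs (snoRNAs) were followed in P19, an embryonal carcinoma line of the mouse that leaves the pluripotent state when given retinoic acid. The members were the array probe sets annotated with a single gene symbol beginning with Snora or Snord and a digit, provided that the highest of their 4 signals reached log2 6. This gave 71 probe sets for 70 genes, out of 75 such probe sets for 73 genes before the limit and out of 41345 probe sets in all. Of the members, 26 probe sets (25 genes) were H/ACA snoRNAs, named Snora, and 45 were C/D snoRNAs, named Snord. The rule used the level on the arrays but no difference between them.

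The study hybridised 4 Affymetrix arrays, 1 per condition. Wild-type P19 cells were measured undifferentiated, with ethanol as vehicle, and after 4 days in 10 µM retinoic acid. The same was done for the Ctcfl line, a single P19 clone carrying the stably integrated vectors pBI-EGFP-FLAG-mCtcfl and pTA-N. Ctcfl is a germ-line paralog of the chromatin protein CTCF, and in this Tet-Off clone 2 µg/ml doxycycline keeps it repressed. Doxycycline had been withdrawn from the clone 2 days before RNA was extracted, in both states. Whether wild-type cells had doxycycline is unclear, since their growth text speaks of normal medium but their characteristics list it at 2 µg/ml. The clone, its vectors, its doxycycline history and Ctcfl itself cannot be told apart in a comparison of the lines.

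SnoRNAs are short RNAs of the nucleolus that pair with ribosomal RNA. C/D snoRNAs guide ribose methylation through a particle holding fibrillarin, Nop56, Nop58 and Snu13, and H/ACA snoRNAs guide pseudouridylation through a particle holding dyskerin (Dkc1), Nhp2, Nop10 and Gar1. A few, such as U8, U13, U17 and U22, serve the cleavage or maturation of precursor ribosomal RNA. In mammals most snoRNAs are cut out of introns of host genes, many of which encode ribosomal proteins or nucleolar proteins, while others, the Snhg genes, are long non-coding RNAs. Many host genes start at a pyrimidine-rich sequence (a 5′ terminal oligopyrimidine tract), the start site that ribosomal protein genes use.

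The 70 annotated genes were 48 to 221 bases long on assembly GRCm38.p6, with a median of 68 bases for C/D and 119 for H/ACA snoRNAs. All but 3 lay inside another annotated gene. A single non-coding host contained 15 members (9 hosts), a host encoding a ribosomal protein or translation factor contained 24 (21 hosts), another protein-coding host contained 24 (18 hosts), and 5 lay inside several genes at once. Snord13, Snord118 and Snord89 had no containing gene. Strand was not compared, so containment alone defined a host. A probe set inside a host cannot separate the mature snoRNA from unspliced host RNA, and RNA was purified on silica columns, which are known to retain short RNAs poorly.

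Of the 15 members in non-coding hosts, 13 lay lower after retinoic acid in the Ctcfl line, beside 53.4% of all probe sets. The start sites of these hosts are shown for that reason, a choice made after the values were seen. RefSeq start windows on GRCm38.p6 existed for 8 of the 9 non-coding hosts, all but Snhg4, the host of Snora74a. Each printed sequence covers 60 bases around the annotated start, 5′ to 3′ on the gene's strand. Capitals mark a run of at least 5 pyrimidines (C or T) that overlaps the 5 bases on either side of the start. Snhg12 (4:132308648-132308707, plus strand, 4 members), Snhg3 (4:132353657-132353716, minus strand, 2 members), 2410006H16Rik (11:62602847-62602906, plus strand, 3 members) and Snhg1 (19:8723457-8723516, plus strand, 1 member) had such a run, and Snhg16 (11:116671630-116671689, plus strand, 1 member) did not.
Snhg12: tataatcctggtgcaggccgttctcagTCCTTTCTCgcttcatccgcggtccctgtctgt
Snhg3: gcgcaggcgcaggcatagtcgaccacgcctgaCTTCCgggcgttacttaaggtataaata
2410006H16Rik: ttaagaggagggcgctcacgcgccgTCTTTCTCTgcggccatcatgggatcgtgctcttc
Snhg1: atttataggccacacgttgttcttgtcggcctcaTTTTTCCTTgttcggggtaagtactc
Snhg16: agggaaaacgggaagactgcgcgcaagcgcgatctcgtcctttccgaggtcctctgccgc

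The run was present at 7 of 8 non-coding hosts with a window (87.5%), 4 of 14 ribosomal protein and translation hosts (28.6%) and 7 of 16 other protein-coding hosts (43.8%), against 35.1% of the 27025 genes of the table. A gene with several start windows was counted if any of them had the run, and the motif below was counted likewise. The count depends on where RefSeq places the start to the base. The share at ribosomal protein and translation hosts was below that of all genes, although ribosomal protein genes use such a start. A run as counted here therefore cannot be read as the oligopyrimidine tract itself, and the host classes cannot be ranked by it. The E-box motif CACGTG, searched in the whole window of 300 bases, was present at 8 of 38 hosts (21.1%) and at 8.09% of all genes; it is its own reverse complement, so both strands give the same count.

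Overlap with an annotated microRNA was read for 1 member, and no count over all members was made. Snora34, inside Kansl2, a subunit of a histone acetyltransferase complex, shares 73 of its 118 bases with the hairpin of Mir1291 (15:98519762-98519878, minus strand, GRCm38.p6). The shared bases, 45 to 117 of the hairpin, are in capitals in the RefSeq sequence.
Mir1291: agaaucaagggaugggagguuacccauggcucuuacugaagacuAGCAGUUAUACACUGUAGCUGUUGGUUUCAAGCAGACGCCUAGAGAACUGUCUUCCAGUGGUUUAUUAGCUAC

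Marker genes were read first, with calls from the limma fit that is described with the retinoic acid results. Ctcfl gave log2 signals of 7.86 and 7.13 in undifferentiated and retinoic acid-treated wild-type cells. The Ctcfl line gave 10.41 and 9.56, which was 5.85-fold and 5.36-fold higher. Of 8 embryonal carcinoma markers, 7 passed the limit, and Nanog, Utf1, Pou5f1 and Tdgf1 fell with retinoic acid. Sox2, Lin28a and Zfp42 were not called, and Dppa5a stayed between 5.58 and 5.90. Hoxb1, Meis1, Cyp26a1 and Rarb, targets of retinoic acid, rose, and Stra8, listed with them, was not called. All 4 fibroblast markers passed the limit and none was called, and of 4 macrophage markers Cd68 rose while Ptprc and Adgre1 stayed below log2 6. Array medians lay between 6.95 and 6.96, and the medians of 1091 olfactory receptor genes, a guide to background, between 4.70 and 4.79.

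Signals of the 71 members ranged from 5.35 to 12.66, and their medians were 9.18 and 8.86 in the wild type, then 9.04 and 8.87 in the Ctcfl line (undifferentiated and retinoic acid). Just inside the limit lay Snord85, Snord19 and Snord92, with highest signals of 6.26, 6.28 and 6.31. Just outside lay Snora19 at 5.97, on a pair of probe sets with identical values, Snord91a at 4.53 and Snord90 at 4.30. 65 members were at or above log2 6 on all arrays and 6 were below it on at least 1. The plot of signals shows every member on the 4 arrays. Signals of a gene are given in the order wild type undifferentiated, wild type treated, Ctcfl line undifferentiated, Ctcfl line treated.

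**Figure D1:**
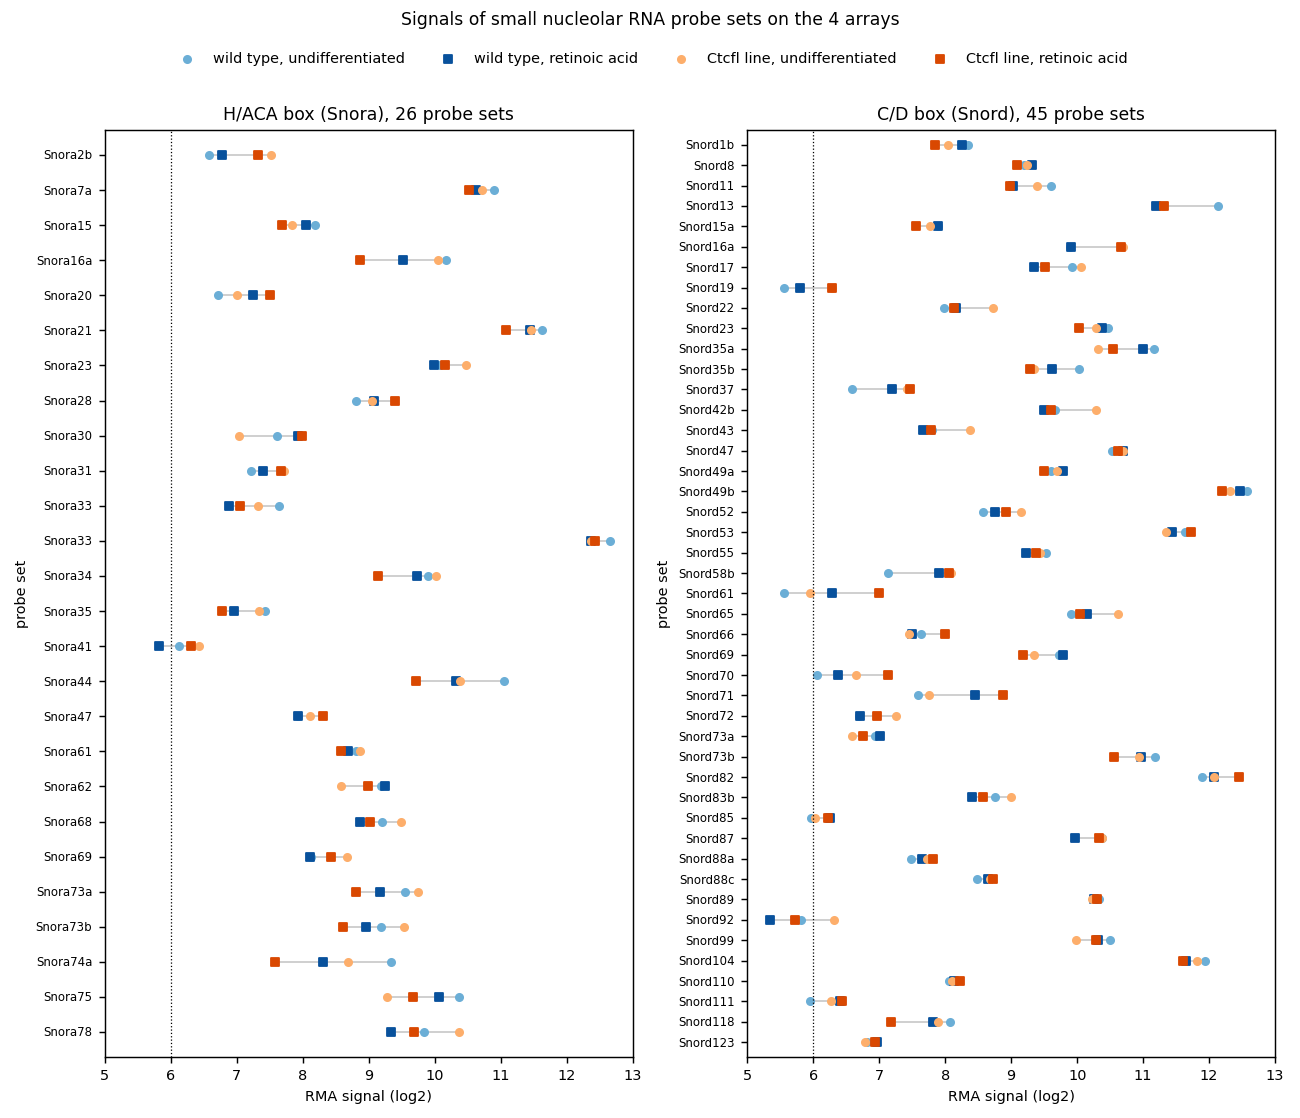
Log2 signals of the 71 snoRNA probe sets on the 4 arrays (1 array a condition, no replicates), with the log2 6 limit marked. The members span 5.35 to 12.66, and for most of them the 4 signals lie close together compared with that span.

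With 1 array a condition, a difference between 2 arrays has no replicate check and no test, and fewer cells of a type and less RNA per cell cannot be told apart. A technical yardstick was available from 866 symbols with several probe sets: within such a symbol, the log2 differences of its probe sets had an SD of 0.311 for retinoic acid in wild-type cells, 0.340 in the Ctcfl line, 0.268 between undifferentiated lines and 0.232 between retinoic acid-treated lines. Members' differences had SDs of 0.373, 0.457, 0.455 and 0.352 in the same order. All probe sets past the limit had SDs of 0.518, 0.532, 0.408 and 0.367. So the members spread less than all probe sets in each retinoic acid comparison, more between undifferentiated lines, and by a similar amount between treated lines.

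The first question was how retinoic acid differentiation moved snoRNA levels. The share of snoRNAs at least 2-fold apart was below that of all probe sets in wild-type cells and close to it in the Ctcfl line. In wild-type cells 1 of 71 members was at least 2-fold apart (Snora74a, lower), whereas 5.66% of all 31136 probe sets were, 3.69% higher and 1.97% lower. In the Ctcfl line 4 of 71 were: Snord71 and Snord61 higher, Snora74a and Snora16a lower, against 6.01% of all probe sets, 4.72% higher and 1.28% lower. Snord61 had reached the log2 6 limit only through its treated arrays, where it was high; among features with all 4 signals at the limit or above, 3 of 65 members (4.62%) and 4.49% of all were 2-fold apart. The members' median differences were -0.10 and -0.15 log2, beside -0.01 and -0.03 for all probe sets.

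The additive fit, limma with retinoic acid and line as terms over all 4 arrays, tested the retinoic acid effect averaged over the lines. It has 1 residual degree of freedom plus a prior of 4 and takes any difference of response between the lines as error. At an adjusted p below 0.05 it called 910 probe sets (2.92%), of which 1 was a member; 2.22% of all rose and 0.703% fell. 19 members (26.8%) had an unadjusted p below 0.05, as had 20.6% of all probe sets. Among the 19, Snord61 had reached the limit only through its treated arrays and Snord92 only through its undifferentiated Ctcfl array, where each was high.

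Snora74a, the H/ACA snoRNA U19, was the member called. Its signals were 9.33 in undifferentiated and 8.30 in treated wild-type cells, then 8.68 and 7.57 in the Ctcfl line. Both treated arrays were below both undifferentiated arrays, and within each state the Ctcfl line was below wild type. The retinoic acid effect was -1.07 ± 0.15 (log2, SE), a 2.09-fold fall, with an adjusted p of 0.0403 in limma. The adjusted p lay between 0.0127 and 0.0734 over 6 fits and was below 0.05 in 5 of them. Its host Snhg4, a long non-coding RNA, had signals of 10.04, 9.24, 9.95 and 8.98 in the same order, an effect of -0.88 ± 0.15 and an adjusted p of 0.0589.

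4 more members lay close to the threshold and passed it in some fits. Snord71, a C/D snoRNA inside both Ap1g1 and Gm17344, had signals of 7.58 and 8.45 in the wild type, then 7.75 and 8.88 in the Ctcfl line. Its treated arrays were both above its undifferentiated arrays, with an effect of 1.00 ± 0.16 and an adjusted p of 0.0502, below 0.05 in 4 of 6 fits. Snord61, in Rbmx, a gene for an RNA-binding protein of splicing, had signals of 5.55 and 6.29, then 5.95 and 6.99, an effect of 0.89 ± 0.16 and an adjusted p of 0.0654. 2 of its 4 signals lay below the log2 6 limit, and the signals of Rbmx itself were 8.72, 9.22, 9.48 and 9.38.

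Snora16a and Snora44 are H/ACA snoRNAs of the non-coding host Snhg12. Snora16a had signals of 10.17 and 9.51 in the wild type, then 10.04 and 8.87 in the Ctcfl line. Snora44 had signals of 11.04 and 10.32, then 10.38 and 9.72. For both, each treated array was below the undifferentiated arrays of both lines. The effects were -0.92 ± 0.19 with an adjusted p of 0.0798 for Snora16a and -0.69 ± 0.15 with 0.0887 for Snora44. With the mean of a symbol's probe sets as the unit, limma called 5 of 70 members (7.14%), these 4 and Snora74a, and 6.16% of all 18257 features, a similar share. Snord61 among them had reached the limit only through its treated arrays.

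**Figure D2:**
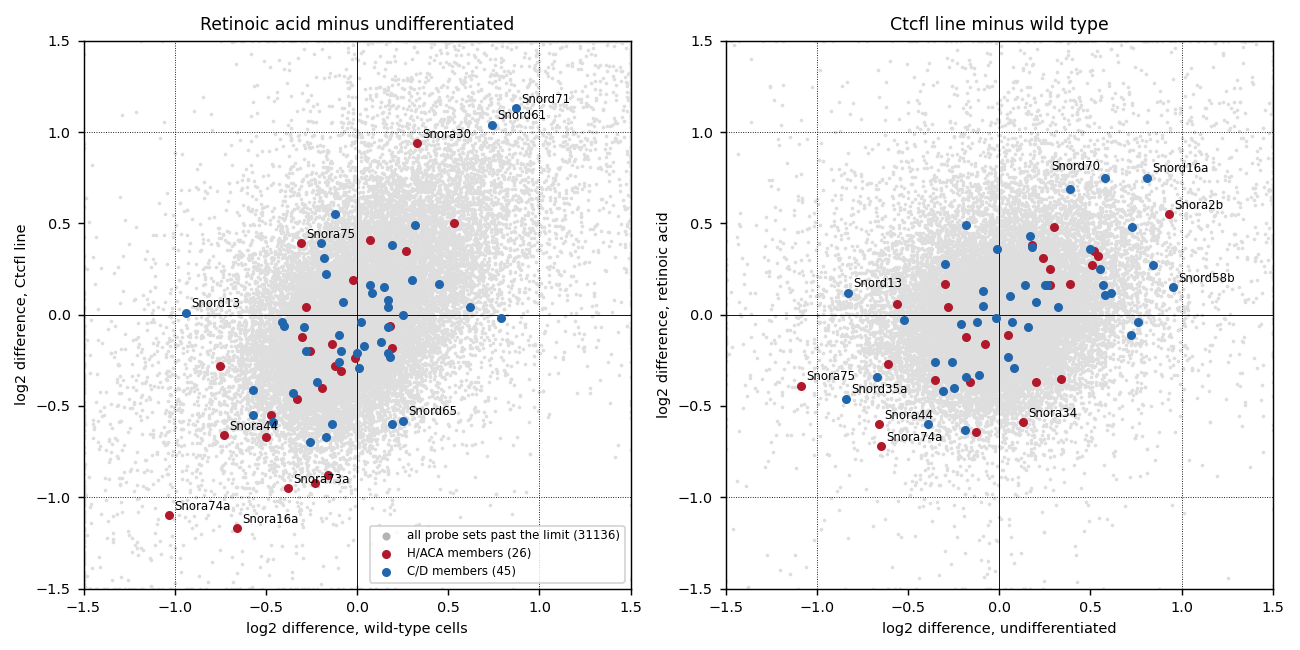
Log2 differences of each snoRNA probe set, with retinoic acid in wild-type cells against retinoic acid in the Ctcfl line on the left, and the line difference in undifferentiated against treated cells on the right; grey points are all probe sets past the limit, and any beyond the axes are drawn at the edge. The members scatter around the diagonal (r = 0.61 on the left and 0.60 on the right, n = 71), and some, such as Snord13, lie well off it, with Snora74a low and Snord71 high on the left.

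The 2 retinoic acid comparisons use different arrays, so they repeat each other in part. Over the 71 members their differences had a Pearson r of 0.61 and a Spearman rho of 0.55, and 49 had the same sign. Over all probe sets the values were 0.61, 0.50 and 67.7%, so the members' agreement was close to the background. 5 members were lower by at least 0.5 log2 in both lines (Snora74a, Snora44, Snora16a, Snord17 and Snora78) and 2 were higher (Snord61 and Snord71). These are 7.04% and 2.82% of the members, beside 2.71% and 7% of all probe sets, and 9.86% beside 9.71% in both directions together. Snord61 had reached the log2 6 limit only through its treated arrays, where it was high, so its place in this count depends in part on the limit. Snord17 and Snora78 were picked out after their values were seen, and Snora78 lies inside both Rps2 and Snhg9.

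By family, 20 of 26 H/ACA members were below 0 in wild-type cells (median -0.21) and 19 of 26 in the Ctcfl line (median -0.26). Among C/D members, 21 of 45 were below 0 in wild-type cells (median 0.01) and 26 of 45 in the Ctcfl line (median -0.06). The wild-type C/D median was -0.01 after quantile normalization and -0.08 with a limit of log2 7, so its sign was not fixed. Of all probe sets, 51.5% and 53.4% were below 0. The families were not tested against each other, and members that share a host are not independent.

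The members with known roles in cutting ribosomal RNA, a grouping made after the values were seen, did not pass the test. Rnu3a (U3), not a member by its symbol, had signals of 8.63, 7.72, 8.06 and 7.66. Its retinoic acid effect was -0.66 ± 0.19, with a limma adjusted p of 0.147. Snora73a and Snora73b (U17) both lie in Snhg3. Snora73a had signals of 9.55 and 9.17, then 9.75 and 8.80 in the Ctcfl line. Snora73b had 9.19 and 8.96, then 9.53 and 8.61, and for both the treated Ctcfl array was the lowest. They differed by -0.38 and -0.23 in wild-type cells and by -0.95 and -0.92 in the line, with limma adjusted p of 0.156 and 0.225. Snord118 (U8), which serves maturation of the large-subunit RNAs, had signals of 8.07, 7.81, 7.89 and 7.18, lowest in the treated Ctcfl line. Snord22 (U22), in Snhg1, had 7.98, 8.17, 8.73 and 8.13, highest in the undifferentiated Ctcfl line.

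Snord13 (U13), which guides acetylation of the small-subunit RNA, had the widest gap between its responses. Its signals were 12.14 and 11.19 in the wild type, then 11.30 and 11.31 in the Ctcfl line. The undifferentiated wild-type array stood apart and the other three lay within a narrow range. Retinoic acid therefore went with -0.94 in the wild type, then 0.01 in the Ctcfl line, a difference of 0.95 between responses that rests on that 1 array. Nat10, the acetyltransferase that works with U13, had signals of 10.74, 9.86, 10.81 and 9.92, lower after retinoic acid in both lines, with an adjusted p of 0.0554.

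The second question was how the Ctcfl line differed from wild type. In undifferentiated cells 1 of 71 members was at least 2-fold apart, against 3.11% of all probe sets (2.11% higher, 0.996% lower). In treated cells none was, against 2.25% (1.87% higher, 0.376% lower). The medians were 0.07 and 0.05 log2, beside -0.00 and -0.01. Smaller differences were more frequent among members in the undifferentiated state: 24 of 71 (33.8%) were at least 0.5 log2 apart, against 15.2% of all probe sets, while in treated cells the shares were 14.1% and 12.2%. The 24 include Snord19, which had reached the log2 6 limit only through the arrays of the Ctcfl line. For the line effect averaged over states, limma called 1 probe set (0.00321%) and no member. 16 members (22.5%) had an unadjusted p below 0.05, as had 9.83% of all probe sets. Snord19 and Snord92 are among the 16, and both had reached the limit only through arrays of the Ctcfl line, where they were high. The members' share therefore depends in part on the limit.

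Snora75 was the member at least 2-fold apart. This H/ACA snoRNA lies inside Ncl, the gene of nucleolin, a major nucleolar protein. Its signals were 10.37 and 10.06 in the wild type, then 9.28 and 9.67 in the Ctcfl line, so both line arrays were below both wild-type arrays. It was 2.14-fold lower in the undifferentiated state and 1.31-fold lower after retinoic acid. Snord82, inside the same gene, had signals of 11.89, 12.08, 12.07 and 12.45, a little higher in the line.

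5 members (7.04%), 2 lower and 3 higher, differed by at least 0.5 log2 between the lines in the same direction in both states, beside 3.36% of all probe sets. Snord16a (U16), in the ribosomal protein gene Rpl4, had signals of 9.89 and 9.91 in the wild type, then 10.70 and 10.66 in the Ctcfl line. The arrays of a line lay within 0.04 of each other, and the line effect was 0.78 ± 0.15 with a limma adjusted p of 0.276. Rpl4 itself had 13.18, 13.08, 13.15 and 13.11, a line effect of -0.00. Snord70, in Nop58, had 6.06 and 6.38, then 6.64 and 7.13, and Snora2b, in Kansl2, had 6.58 and 6.77, then 7.51 and 7.32. Both were higher in the line in both states, by 0.58 and 0.75 and by 0.93 and 0.55. Snora74a and Snora44 were lower in the line, by -0.65 and -0.72 and by -0.66 and -0.60.

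The line differences in the 2 states also come from different arrays. Over the 71 members they had r = 0.60 and rho = 0.61, and 52 (73.2%) had the same sign. Over all probe sets the values were 0.29, 0.22 and 57%. A single clone stands behind both states, so a lasting difference of the clone and an effect of Ctcfl cannot be told apart.

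Among members with the largest undifferentiated line differences, Snord35a (in Rpl13a) had signals of 11.17 and 11.00 in the wild type and 10.32 and 10.55 in the line. Each array of the line was below both wild-type arrays. Snord58b, in Rpl17, had 7.13 and 7.91, then 8.08 and 8.06. The undifferentiated wild-type array was again the one apart, with a line difference of 0.95 before and 0.15 after retinoic acid.

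The third question was whether the lines responded differently to retinoic acid. No member differed by 2-fold or more between the responses, against 4.22% of all probe sets (2.65% higher, 1.57% lower). The extremes were Snord65 at -0.83 and Snord13 at 0.95. Snord65 (in 2410006H16Rik) had signals of 9.90 and 10.15 in the wild type and 10.62 and 10.04 in the line. Snora30, an H/ACA snoRNA in the chromatin remodeller gene Srcap, had 7.60 and 7.92, then 7.03 and 7.98. In both, the undifferentiated array of the Ctcfl line was the extreme one, high for Snord65 and low for Snora30. The interaction cannot be tested with 1 array a condition.

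Grouped by host, a division made after the values were seen, members in non-coding hosts lay low in the treated Ctcfl line. Against undifferentiated cells of the line, 13 of 15 were below 0, with a median of -0.28, beside 53.4% of all probe sets. Against treated wild-type cells, 14 of 15 were below 0, with a median of -0.26, beside 51.6% of all probe sets. These comparisons share the treated Ctcfl array. Members in ribosomal protein or translation hosts had medians of -0.10 and 0.14 in the same 2 comparisons, and members in other protein-coding hosts 0.06 and 0.13. In wild-type cells retinoic acid gave a median of -0.12 for the non-coding class, with 10 of 15 below 0. The share of all probe sets below 0 was 51.5% there. The limma fit tested averaged effects only, and for retinoic acid it called Snora74a alone in this class.

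**Figure D3:**
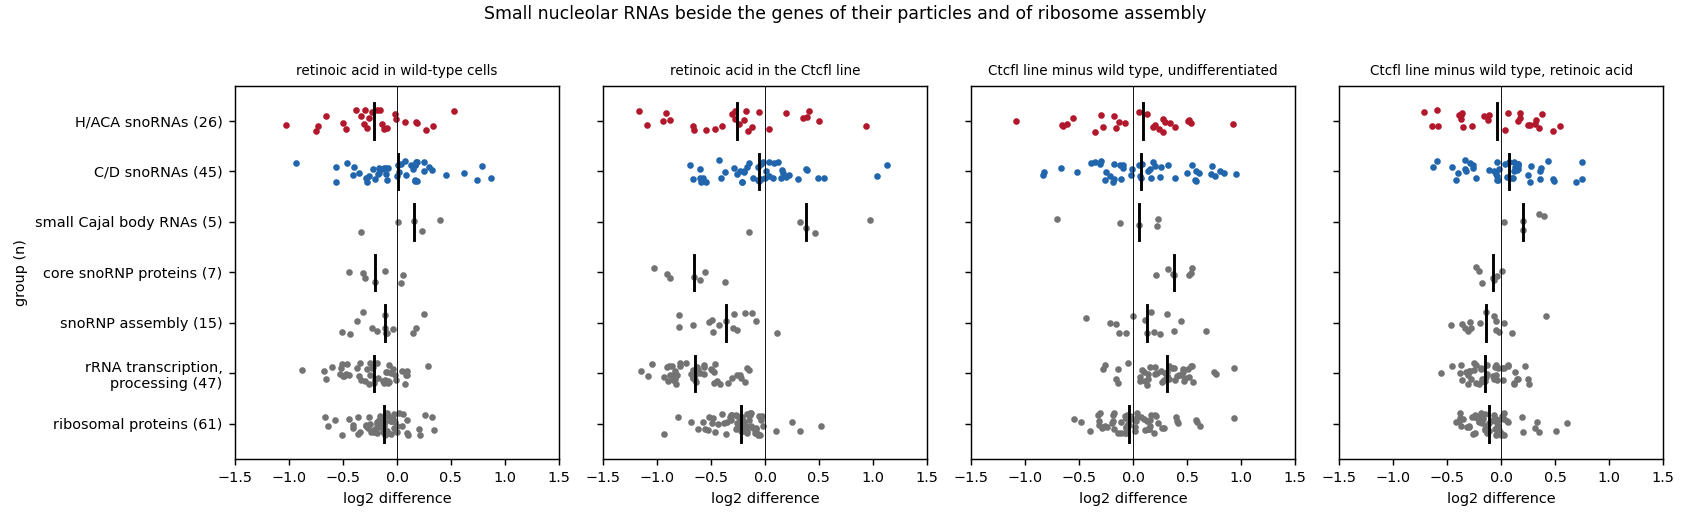
Log2 differences for retinoic acid in each line and for the line difference in each state. Each point is a probe set, and black bars mark medians. A gene other than a snoRNA member is shown by its probe set with the highest mean signal. Rows are H/ACA and C/D snoRNAs, small Cajal body RNAs, core particle proteins, assembly factors, genes of ribosomal RNA transcription and processing, and ribosomal proteins. With retinoic acid in the Ctcfl line, all 47 genes of ribosomal RNA transcription and processing lie below 0.

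Hosts with a value of their own were compared with the snoRNAs they hold, over 53 pairs and 38 hosts. Each host was read by its probe set with the highest mean signal, and its other probe sets were not compared. The correlations across pairs were weak: r was 0.36 for retinoic acid in wild-type cells, 0.28 in the Ctcfl line, and 0.11 between the lines in each state. In the non-coding class r was 0.67 over 13 pairs for retinoic acid in the Ctcfl line and -0.03 in wild-type cells. Pairs of a host are not independent, and a pair is read on the same arrays, so these are descriptions. Between treated lines, all 13 members in non-coding hosts with a value lay below their host, with medians of -0.26 for the members and 0.10 for the hosts. The median for 18 pairs in ribosomal protein and translation hosts was 0.16 for members and -0.12 for hosts.

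**Figure D4:**
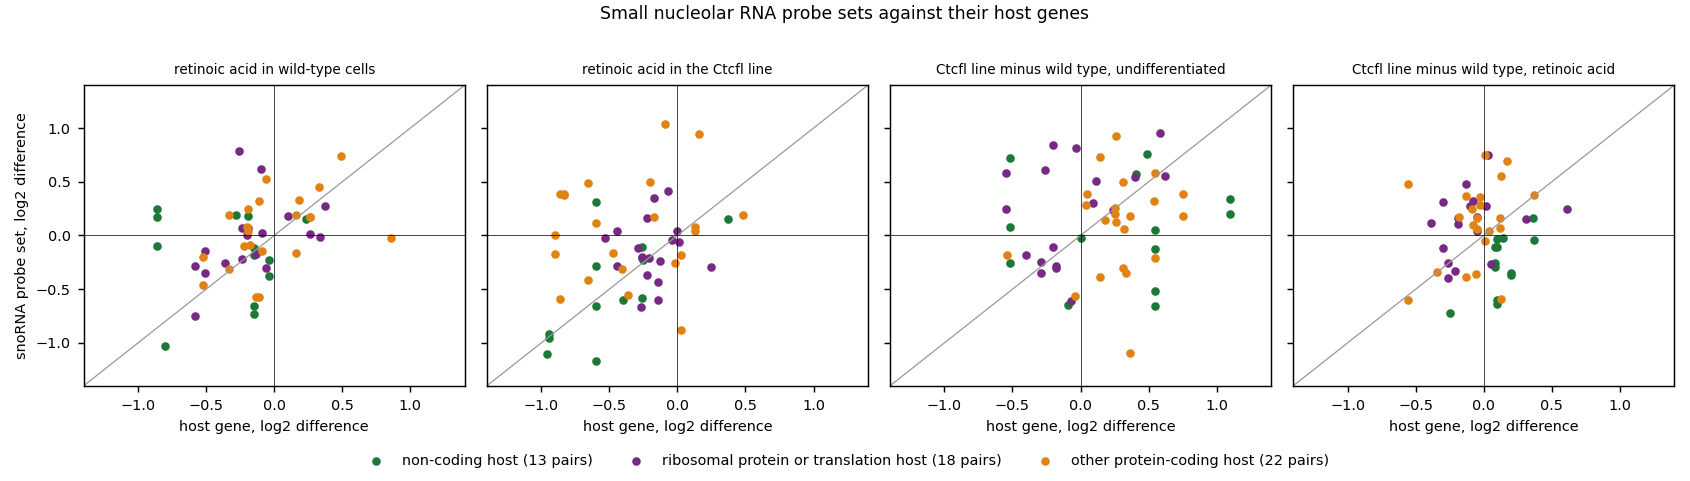
Log2 difference of each snoRNA probe set against that of its host gene, for the 53 pairs with a host value, in each of the 4 comparisons. Points scatter widely, with r between 0.11 and 0.36 over all pairs.

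SnoRNAs of the same host did not always move together. Snora73a and Snora73b stayed within 0.15 log2 of each other in every comparison, and Snord88a and Snord88c, in 2410002F23Rik, within 0.09. The Snord88a and Snord88c pair was picked out after its values were seen. The Snhg12 snoRNAs Snora16a, Snora44, Snora61 and Snord99 spread over 1.48 log2 for retinoic acid in the Ctcfl line, from -1.17 for Snora16a to 0.31 for Snord99, a C/D snoRNA. Snhg12 itself had signals of 7.51, 7.36, 8.06 and 7.47, a difference of -0.60 there. In Gnl3, the nucleostemin gene, Snord19 and Snord69 lay 1.12 apart between undifferentiated lines and 1.08 apart between treated lines. Snord19 had reached the log2 6 limit only through the arrays of the Ctcfl line, where it was high, so this gap depends in part on the limit. In Nop58, Snord70 and Snord11 lay 0.89 apart for retinoic acid in wild-type cells and 0.90 apart in the Ctcfl line. The 2 Snora33 probe sets, on the same gene in Rps12, differed by up to 0.46 in a comparison. Their signals were far apart, at 7.63, 6.88, 7.32 and 7.05 for 1 and 12.66, 12.37, 12.37 and 12.42 for the other. This single pair is therefore only a rough scale for gaps between snoRNAs of a host.

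**Figure D5:**
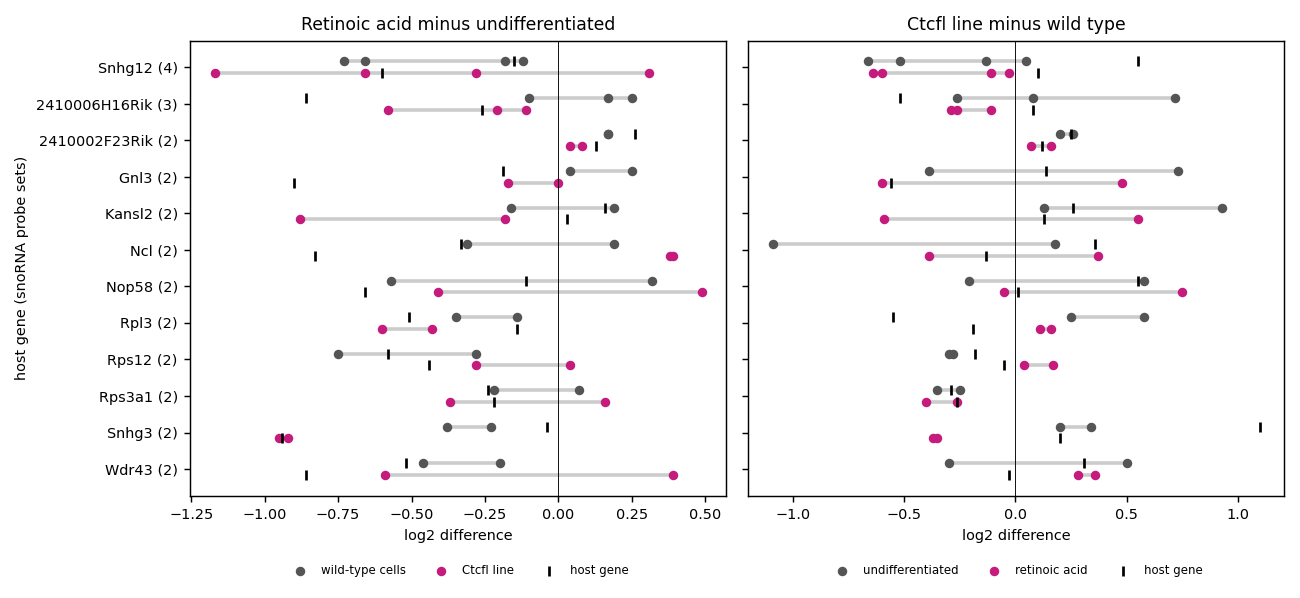
Log2 differences of snoRNA probe sets that share a host gene, for retinoic acid in each line (left) and for the line difference by state (right); points are snoRNA probe sets, grey bars join those of a host, and black ticks mark the host gene. The Snhg3 pair lies close together in every comparison, while the 4 Snhg12 probe sets span 1.48 log2 for retinoic acid in the Ctcfl line.

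Probe sets with a snoRNA symbol and another symbol were not members, but 26 of their 28 distinct value sets passed the limit. Snora17, listed with its host Snhg7 on a pair of probe sets, differed by -0.66 and -0.70 for retinoic acid in wild-type cells and by -0.94 and -0.78 in the Ctcfl line. The imprinted Snord116 cluster was read by 16 probe sets with identical values of 12.31, 12.12, 12.13 and 12.13, which varied little between arrays. These names were chosen after their values were seen.

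The proteins of snoRNA particles and of ribosome production showed a pattern of lower signals after retinoic acid in the Ctcfl line. In limma no gene of these groups was called for the effect averaged over the lines, beside 2.92% of all probe sets. That fit takes a difference between the lines' responses as error, so its calls do not test a pattern of 1 line. The 7 core proteins with a value had median differences of -0.20 in wild-type cells and -0.66 in the line, where all 7 were below 0, and limma called 0 of 7. Dkc1, the pseudouridine synthase, had signals of 11.04 and 10.74 in the wild type and 11.58 and 10.55 in the line, with an adjusted p of 0.187. Nop58 had 10.93 and 10.82, then 11.48 and 10.83. Both were highest in the undifferentiated Ctcfl line, and the undifferentiated line exceeded wild type for all 7 (median 0.38). This excess and the lower signals after retinoic acid in the line share the single undifferentiated Ctcfl array. Between treated lines the median of the core proteins was -0.08, with 6 of 7 below 0. The 15 assembly factors had medians of -0.11 and -0.36. The 47 genes of ribosomal RNA transcription and processing had -0.21 and -0.65, with all 47 below 0 in the line and 0 of 47 called. For these 47 the median line difference was 0.31 in undifferentiated and -0.15 in treated cells, and the same array is shared. Among these, Ddx21, a nucleolar helicase, had signals of 11.82, 11.29, 12.14 and 11.00, and Heatr1, a factor of small-subunit processing, 10.83, 10.32, 11.05 and 9.99.

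Other small RNAs differed in both directions. The 5 small Cajal body RNAs past the limit, guides for spliceosomal RNA, had medians of 0.16 and 0.38 with retinoic acid, and 4 of 5 were above 0 in each line. Scarna17 had signals of 10.49 and 10.72 in the wild type and 9.78 and 10.75 in the line. The 9 other structured small RNAs, Rnu3a among them, had medians of 0.07 and -0.17 with retinoic acid, with 4 and 6 of 9 below 0. Of these limma called 1, Rny1, a Y RNA, which fell by 1.17 on the log2 scale (adjusted p 0.0401). Among the 19 Snhg host genes it called 1, Snhg14, the host of imprinted snoRNA clusters, which fell by 1.52 (adjusted p 0.0261). None of the 61 ribosomal protein genes was called, and their medians were -0.12 and -0.22.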

How the data were processed

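RNA was extracted with the RNeasy Mini Kit and labelled as biotinylated cRNA, per the labels' protocols. The authors deposited log2 signals from RMA (background correction, normalization across arrays, then 1 summary value per probe set) in Affymetrix Expression Console per the labels. Transcriptome Analysis Console is named as well in the submitters' processing notes, with versions and build not given in the sources used here. The values were used as deposited. Arrays give no read depth: their number, 4, limits the precision.

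Symbols came from the platform's probe annotation, with 23521 probe sets having 1 symbol, 1814 several and 16010 none here. Hosts, markers and listed genes were each read by the probe set of that symbol alone with the highest mean signal. Gene positions, hosts and start windows came from RefSeq tables on GRCm38.p6. All 70 member genes matched the gene table, and none had a start window.

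Probe sets below log2 6 on all arrays were left out, and 31136 remained. Members 2-fold or more apart were counted, with no test. Effects came from limma 3.58.1 (R 4.3.3; lmFit, eBayes) with additive terms for retinoic acid and for line, two-sided, with Benjamini-Hochberg adjustment over all 31136 probe sets. The fit was tested on simulated data. P-values cover only these 4 arrays. They rest on 1 residual degree of freedom, the difference of response between the lines, and on a prior of 4 drawn from all probe sets. They do not measure the spread between replicates of a condition, and an SE is not a probe set's own measured spread. The members and lists were chosen with earlier results of these data known. Genes were named by a rule: the 6 highest and 6 lowest differences in each comparison, members called, members at the limit, their hosts, the core proteins, and up to 4 genes with the largest differences from each other list. Names from outside it were chosen after their values were seen, whether or not the text says so beside them. Snord88a, Snord88c, Snora61 and Snord11 are such names. Alternatives were the limit on signal, the normalization, the unit, the fold threshold and the variance prior.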

Additional observations from a re-analysis of the deposited data

Results flagged for a closer look

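Differences of opposite sign were frequent: 21 of 71 members (29.6%) for retinoic acid in the 2 lines and 19 of 71 (26.8%) for the line in the 2 states, beside 32.1% and 42.8% of all probe sets. The 3 members described here are those for which both differences exceeded the SD between probe sets of a symbol in their comparison (0.311 and 0.340 for retinoic acid, 0.268 and 0.232 for the line, compared before differences were rounded). None of these differences was tested, since there is 1 array a condition.

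Snora75, the H/ACA snoRNA in Ncl, differed after retinoic acid by -0.31 in the wild type but by 0.39 in the Ctcfl line, 0.70 apart. Snora73b (U17), in Snhg3, was 0.34 higher in the Ctcfl line than in wild type when undifferentiated and differed by -0.35 after retinoic acid, a change of -0.69. Its neighbour Snora73a gave 0.20 and -0.37. Snord53, a C/D snoRNA in Wdr43, a gene of small-subunit processing, gave -0.30 and 0.28, a change of 0.58. The other Wdr43 snoRNA, Snord92, gave 0.50 and 0.36. Snord92 had reached the log2 6 limit only through its undifferentiated Ctcfl array, where it was high.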

How the results depend on the processing

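Of 65 recomputed counts and medians, 57 stayed within the limits set for them and 8 moved. At a 3-fold threshold, 0 members were apart for retinoic acid in wild-type cells, 0 for retinoic acid in the Ctcfl line and 0 between undifferentiated lines, beside 1.85%, 1.76% and 0.671% of all probe sets. For the retinoic acid effect limma called 2 members with a limit of log2 7, 0 with no limit on signal, 2 after quantile normalization, 5 with the mean of a symbol's probe sets and 2 with a variance prior that follows mean expression, against 1 as reported. Over all features these fits called 1079 of 22680 (4.76%), 169 of 41345 (0.409%), 1133 of 31136 (3.64%), 1125 of 18257 (6.16%) and 1225 of 31136 (3.93%), against 910 (2.92%). For the line effect they called 2, 1, 2, 8 and 17, against 1, and no member in any. The cause was not tested.

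Requiring all 4 signals at or above log2 6 was an alternative chosen after seeing the data. No paired analysis was possible because the labels give no replicate numbers and each condition has 1 array. Leaving out an array leaves the additive fit no residual degree of freedom, so no such fit was run. Signals near log2 6 lie close to background, which limits what Snord61, Snord19 and Snord92 can show.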
